A study of Homo sapiens with 9 samples.

Results

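Cells that carried melanosomes and received glabridin were compared with untreated cells, over all expressed genes. The comparison takes 6 of the 9 libraries of the series, 3 of each group, and 13912 of the 20263 genes in the count table, those that passed a filter on low counts. All libraries came from HaCaT, a spontaneously immortalised human keratinocyte line. The control cells, labelled WT, were given neither agent. The glabridin group received melanosomes and glabridin, an isoflavan of licorice root, and the melanosome group received melanosomes without it. The melanosome group, also of 3 libraries, is used here to place each gene that differs from control. None of the groups used here received glabridin without melanosomes, so what glabridin does alone and what it does in cells given melanosomes cannot be told apart. The sources used here do not give a dose, a time, or where the melanosomes came from. According to the series title, the study asked whether glabridin promotes the breakdown of melanosomes and relieves mitochondrial dysfunction by way of autophagy.

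Melanosomes are the pigment organelles that melanocytes make and pass to keratinocytes, where they are broken down in part by autophagy and lysosomes. A cell that faces an excess of unfolded protein in the endoplasmic reticulum (ER) raises chaperone genes through the sensors IRE1, PERK and ATF6, a programme called the unfolded protein response. PERK and related kinases also act through the transcription factor ATF4, which raises amino acid supply and tRNA charging, and that arm is called the integrated stress response. In epidermis, keratinocytes move from a basal, dividing state to a cornified one, and they express antimicrobial and mucosal defence genes on the way.

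Deposited counts summed to between 41793696 and 45839573 per control library and between 42582054 and 46591852 per glabridin library. Levels below are CPM, the usual depth-scaled counts, on library sizes scaled by TMM, a method that equalises the bulk of genes between libraries. They compare a gene between libraries and not 1 gene with another. The 3 values of a group are given in the order of the replicate numbers in the labels. A gene is called higher or lower when the adjusted p of edgeR's quasi-likelihood test, fitted to all 9 libraries, is under 0.05. Nothing in the labels says that replicates were separate cultures. The p-values therefore speak of library-to-library spread, and this may be technical. In bulk RNA, fewer cells of a type and less RNA per cell cannot be told apart.

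The glabridin libraries differed among themselves more than the others did. Of 10239 genes with a mean of at least 5 CPM, 1924 were over 1.5-fold apart between glabridin replicates 2 and 3, which is 18.8% of them, against 63 to 64 between any pair of control libraries. Replicate 1 lay between those replicates on the second principal component of the 6 libraries, which held 3.55% of the variance. The first component held 92.2% and parted control from glabridin libraries.

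The keratinocyte label held. All 12 epidermal keratinocyte markers were detected in each library, with a summed level of 12560 to 12670 CPM in control and 8387 to 10820 CPM in glabridin libraries. Of these markers, 3 rose and 5 fell against control, and 5 rose when glabridin replicate 3 was left out. Transcripts of pigment cells were present in both treated groups. The 29 melanocyte markers summed to 323 to 333 CPM in control, 3792 to 3924 CPM in the melanosome group, and 2759, 4155 and 2357 CPM in glabridin replicates 1, 2 and 3. Of the 29, 27 rose and 2 fell, and for 15 no control library held more than 3 counts. ERBB3 and APOD were the 2 that fell. Of 12 fibroblast, 10 leukocyte and 8 endothelial markers, 6, 5 and 3 never exceeded 3 counts in control, among them PDGFRB, PTPRC and TEK, and 4, 5 and 3 never did in the glabridin group. The fibroblast markers summed to 42.8 to 45.8 CPM in control and 20.5 to 25.4 CPM with glabridin, with 2 of 5 tested higher and 3 lower, DCN at -3.41 and TWIST1 at 4.42 on the log2 scale. The leukocyte markers summed to 57.5 to 61.6 CPM and 107 to 121 CPM, with 2 of 4 higher and 1 lower (none lower without control replicate 1), most of the sum being CD68, a lysosomal membrane protein, which rose by 1.02 ± 0.07 SE. The endothelial markers summed to 42.2 to 44.0 CPM and 27.2 to 44.5 CPM, with 1 of 5 higher, EGFL7 at 2.65, and 3 lower, CDH5 having the largest fall at -4.01. Mitochondrially encoded genes made up 3.48% ± 0.128 (SD, n = 3) of control counts and 1.66% ± 0.181 of glabridin counts. The part that RNA of other cell types and library differences have in the results below was not tested.

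**Figure D1:**
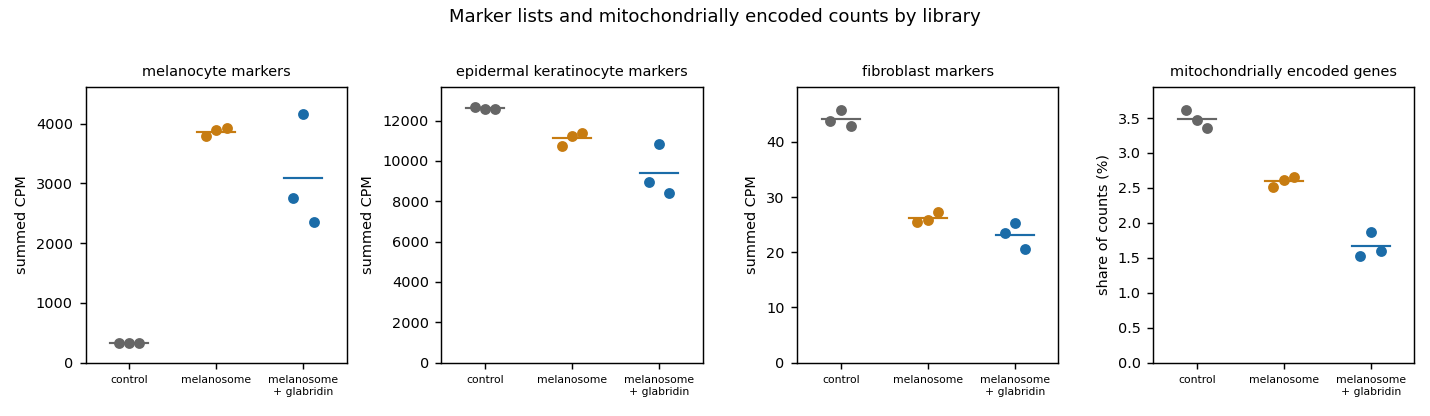
Summed CPM of 3 marker lists and the percentage of counts that fell on 13 mitochondrially encoded genes, by group; points are libraries in replicate order and bars are group means. The melanocyte sum is 323 to 333 CPM in control and 2357 to 4155 CPM in the glabridin group, and the mitochondrial share is lower in every glabridin library than in any control library.

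Against control, 9774 genes were called in the glabridin group, 70.3% of those tested. Of these, 5225 were higher (37.6%) and 4549 lower (32.7%), and the median change over all genes tested was 0.035 on the log2 scale. At 2-fold or more, 2258 genes were higher and 1582 lower. The melanosome group against the same control libraries gave 62.5% of genes called, with 29.5% higher and 33% lower. Glabridin against melanosome libraries, the direct test of what glabridin added, gave 43.9% called, with 23.7% higher and 20.2% lower. With so many genes called, a count of members is read against these shares.

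Each gene was then placed by all 3 tests. Genes called in the same direction in both treated groups stayed away from control, and these were 6868 genes or 49.4%, with 3517 higher (25.3%) and 3351 lower (24.1%). Genes called with melanosomes alone, moved back by glabridin, no longer called against control and within 1.5-fold of it by their 95% interval had returned to control level. These numbered 742 or 5.33%, with 199 that had been higher (1.43%) and 543 that had been lower (3.9%). Genes called in the glabridin group and against melanosomes, with the melanosome group not called and within 1.5-fold of control, changed only with glabridin. They numbered 1560 or 11.2%, with 1035 higher (7.44%) and 525 lower (3.77%). This name does not exclude a smaller shift with melanosomes alone. In ACKR3, TGM1, LCN2 and DNAJB1, for example, the melanosome libraries did not overlap with control. The fit takes the spread of a gene from all 9 libraries, so the wider glabridin spread enters that test too. A further 286 genes, 2.06%, were called on opposite sides of control in the 2 treated groups, with 216 now higher (1.55%) and 70 now lower (0.503%). The other 1855 called genes met no definition, and 2601 were called in neither comparison with control.

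Among the genes that stayed away, glabridin moved 2049 further from control and 670 part of the way back. The remaining 4149 were not called between the treated groups. Changes of 2-fold or more were most frequent here, with 3306 of 6868 genes, against 166 of the 1560 that changed only with glabridin. Of the 742 returned genes, 25 had been 2-fold or more from control with melanosomes alone. Several classes depended on how the libraries were scaled. The median of all genes in melanosome against control was -0.058 with TMM and 0.108 with library totals alone. Under all of 4 scalings, 97.5% of the genes that stayed higher kept their class, as did 91% of the returned genes that had been higher and 87.1% of those now lower after crossing. The share was 19.7% for returned genes that had been lower, 33.7% for genes higher only with glabridin and 23.6% for genes now higher after crossing. Leaving out 1 library also moved the smaller classes. Genes now higher after crossing numbered 97 without glabridin replicate 1 and 445 without glabridin replicate 2. Returned genes that had been lower numbered 231 and 827 without the same libraries.

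**Figure D2:**
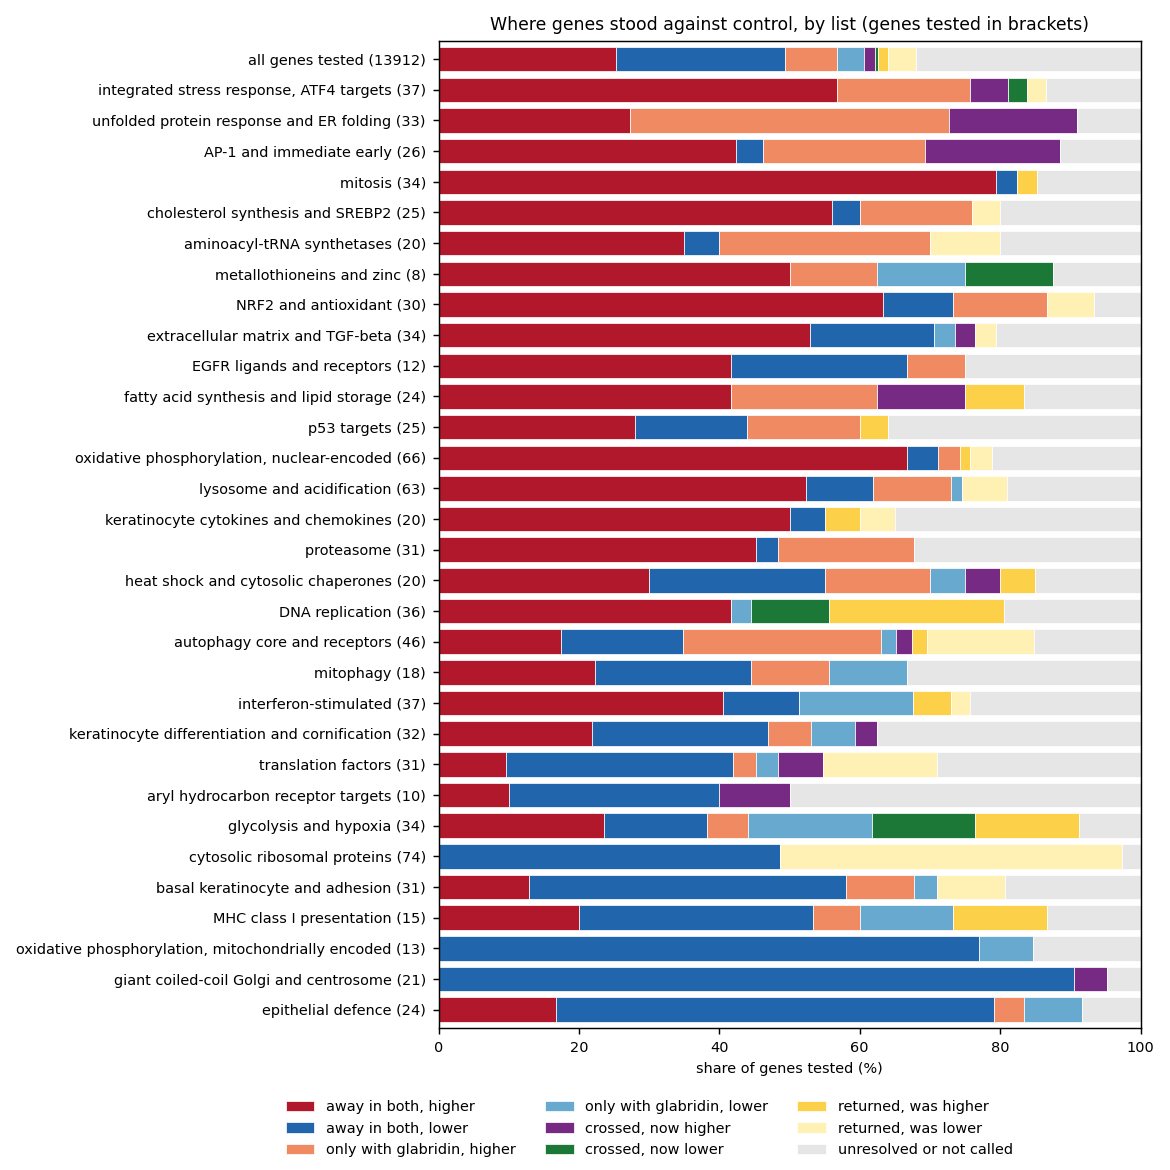
Share of genes tested (%) in each class for all genes and for 31 lists, ordered by their median change against control, with the number of genes tested in brackets. In the unfolded protein response list 15 of 33 genes were higher only with glabridin, in the mitosis list 27 of 34 stayed higher in both treated groups, and in the ribosomal protein list 36 of 74 had returned.

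Genes of the unfolded protein response were raised with glabridin and, as a list, lay near control with melanosomes alone. Of 33 genes tested, 32 rose and none fell against control, with a median log2 change of 1.38, where the melanosome group had 9 higher, 6 lower and a median of 0.014. Against the melanosome group, the same counts of 32 and 0 were found. By class, 15 genes were higher only with glabridin, 9 stayed higher, 6 had crossed from below control, and 2 met no definition. ERO1B, an ER oxidase, was the member not called.

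HSPA5 encodes BiP, the main ER chaperone and brake on the stress sensors (ENSG00000044574, chr9:125234853-125241330 on GRCh38). It stood at 661, 669 and 666 CPM in control, 488, 508 and 501 CPM with melanosomes alone and 6334, 4814 and 6238 CPM with glabridin added (log2 change 3.12 ± 0.091 SE, adjusted p = 1.69e-09). The melanosome libraries lay below control and the glabridin libraries far above it, with no overlap. Under library totals alone HSPA5 counted as higher only with glabridin. HERPUD1, a component of ER-associated degradation, had 67.9, 69.97 and 68.4 CPM in control, 64.8, 69.4 and 69.2 CPM with melanosomes and 653, 497 and 619 CPM with glabridin (log2 change 3.10 ± 0.089 SE, adjusted p = 1.46e-09). Control and melanosome libraries overlapped, and all glabridin libraries were above both. DNAJB9, a cochaperone of BiP, went from 22.1, 18.2 and 21.7 CPM to 98.2, 76.5 and 141 CPM (log2 change 2.35 ± 0.20 SE, adjusted p = 2.27e-06), where the melanosome libraries read 22.5, 18.4 and 16.7 CPM. HYOU1, an ER chaperone, read 109.7, 109 and 108 CPM in control, 113, 118 and 121 CPM with melanosomes and 570.1, 404 and 544 CPM with glabridin (log2 change 2.22 ± 0.11 SE, adjusted p = 3.68e-08). In each of these genes glabridin replicate 2 was the lowest of its group and still clear of every other library.

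The genes of all 3 sensors rose in RNA level. Counts per gene do not show whether the sensors were active or whether XBP1 RNA was spliced. XBP1, the factor whose RNA is spliced by IRE1, averaged 97.8, 92.9 and 328 CPM in control, melanosome and glabridin groups, a log2 change of 1.75 ± 0.11 SE. The IRE1 gene ERN1 rose by 1.75 ± 0.17 SE, the PERK gene EIF2AK3 by 1.22 ± 0.11 SE and ATF6 by 0.22 ± 0.075 SE on the log2 scale. Genes of protein disulfide bond formation and folding rose as well, with PDIA4 at 1.69, P4HB at 1.55, PDIA6 at 1.46 and PDIA3 at 1.21. The secreted ER factors MANF and CRELD2 had log2 changes of 2.25 and 1.53, and both were already called higher with melanosomes alone, at 0.22 and 0.41. ARF4, a small GTPase of Golgi traffic, was outside the list and among the 4 largest rises of the class, with 169, 157 and 172 CPM in control, 213, 196 and 171 CPM with melanosomes and 839, 706 and 981 CPM with glabridin (log2 change 2.34 ± 0.11 SE, adjusted p = 4.22e-08). Its melanosome libraries overlapped with control, and under the 3 other scalings it counted as higher in both treated groups.

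Promoters of the list hold a known regulatory letter pattern, shown here because its genes moved together. The ER stress response element was searched as CCAAT, any 9 bases, then CCACG, on both strands, in the 250 bases before each RefSeq gene start (GRCh38.p14). Of the 33 list genes, 30 had a promoter in the table and 7 of these held the pattern, which is 23.3%. It was held by 26 of all 35116 promoters there, 0.0740%, and over the 11156 promoters of genes tested here 14, or 0.1255%. Each match contains a CCAAT box, a commoner pattern present in 24 of the 30 list promoters (80%) and in 34.9% of promoters of genes tested. The box was about as frequent in promoters of the cholesterol list (83.3%) and the mitosis list (79.3%). Several genes of the unfolded protein response list are known for the ER stress response element, so its count is a description and no independent support. The promoters of HSPA5 (chr9:125241344-125241593, minus strand), HSP90B1 (chr12:103930160-103930409, plus strand) and XBP1 (chr22:28800570-28800819, minus strand) are printed 5′ to 3′ along the gene, with the matches in capitals.
HSPA5: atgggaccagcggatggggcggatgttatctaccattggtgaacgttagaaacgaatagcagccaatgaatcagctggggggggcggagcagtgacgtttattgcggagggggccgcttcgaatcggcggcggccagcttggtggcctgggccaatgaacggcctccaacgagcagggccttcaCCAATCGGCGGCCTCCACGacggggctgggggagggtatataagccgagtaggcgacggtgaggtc
HSP90B1: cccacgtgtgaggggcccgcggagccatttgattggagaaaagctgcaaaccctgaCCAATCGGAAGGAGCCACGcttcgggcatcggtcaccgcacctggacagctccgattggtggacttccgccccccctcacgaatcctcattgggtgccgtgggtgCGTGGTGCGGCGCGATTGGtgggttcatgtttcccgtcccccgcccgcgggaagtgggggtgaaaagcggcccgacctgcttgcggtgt
XBP1: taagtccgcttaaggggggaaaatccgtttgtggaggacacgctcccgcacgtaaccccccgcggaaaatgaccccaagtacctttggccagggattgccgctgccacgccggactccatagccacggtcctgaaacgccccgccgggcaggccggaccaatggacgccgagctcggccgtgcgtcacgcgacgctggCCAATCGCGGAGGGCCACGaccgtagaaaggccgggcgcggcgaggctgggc
The match begins 66 bases before the start of HSPA5 and 52 bases before that of XBP1. HSP90B1, which encodes the ER chaperone GRP94, holds 1 match on each strand, and its log2 change was 1.10 ± 0.15 SE. CALR, CANX and CRELD2 hold 1 match each and rose by 1.38, 1.13 and 1.53. ERO1B, the member that was not called, also holds 1 match.

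**Figure D3:**
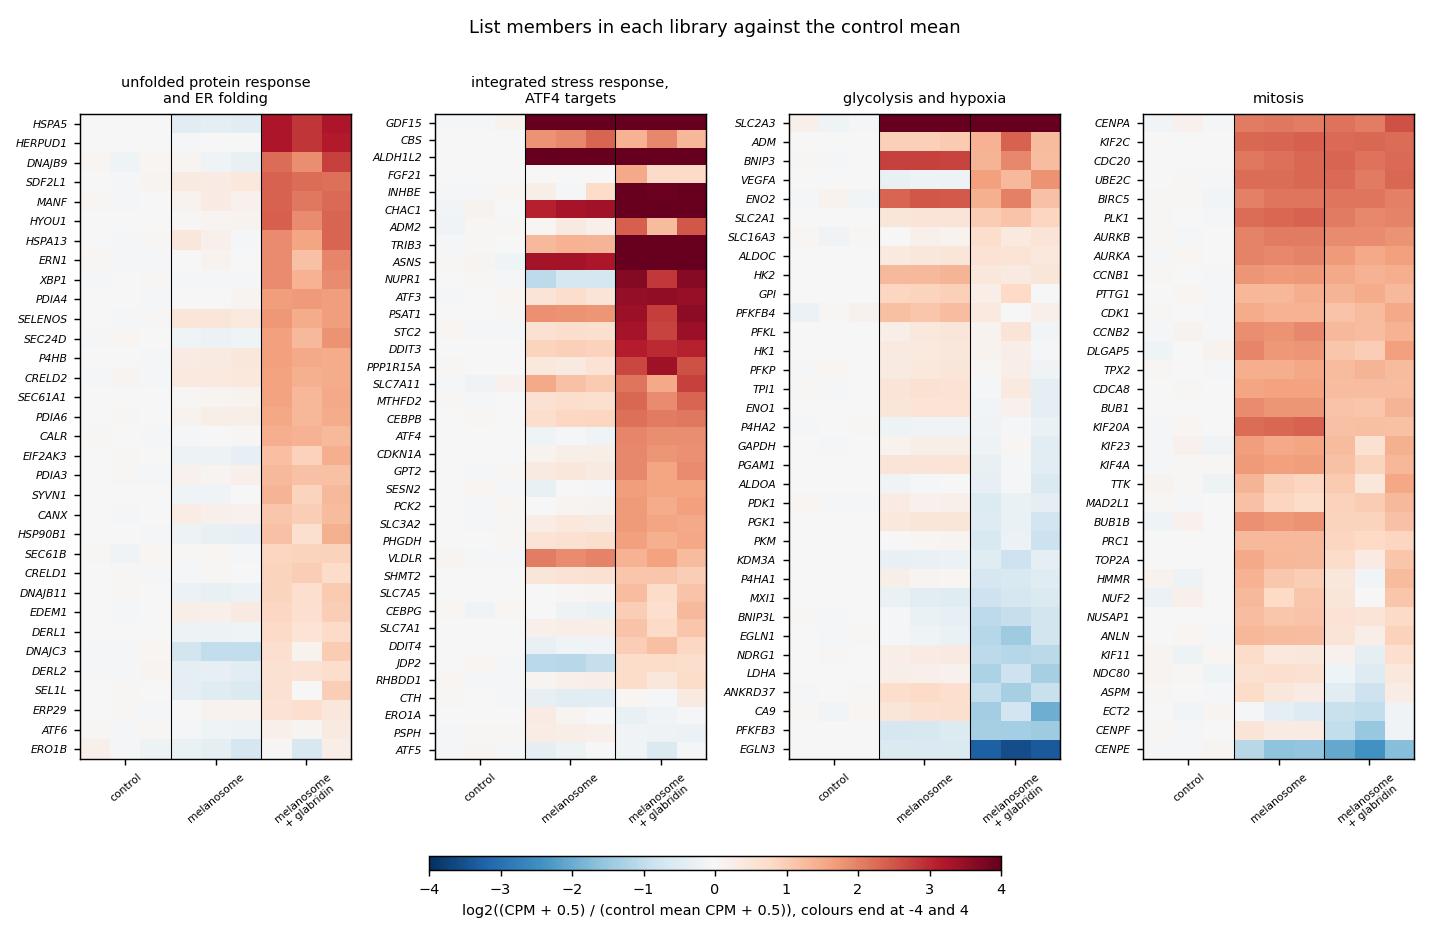
Each row is a gene and each column a library in replicate order; colour is log2((CPM + 0.5) / (control mean CPM + 0.5)), ending at -4 and 4. The unfolded protein response genes are near control in the melanosome group and high in all 3 glabridin libraries, whereas the mitosis genes are high in both treated groups.

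Most listed targets of ATF4 rose with glabridin, and some of them had risen with melanosomes alone. Of 37 genes tested, 33 rose and 1 fell, with a median of 1.89, against 22 higher, 3 lower and a median of 0.46 with melanosomes alone. In 21 of the 37 the gene was higher in both treated groups, and in 18 of these glabridin moved it further. ATF4 itself changed only with glabridin, averaging 361 CPM in control, 331 CPM with melanosomes and 1341 CPM with glabridin (log2 change 1.89 ± 0.052 SE). PSPH, a serine synthesis enzyme, was the 1 gene that fell, at -0.19, and it counted as returned to control level under RLE scaling and with DESeq2.

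GDF15, a stress cytokine, stood at 0.481, 0.497 and 0.643 CPM in control, 135, 139.8 and 154 CPM with melanosomes and 288, 347 and 230.2 CPM with glabridin (log2 change 9.06 ± 0.25 SE, adjusted p = 3.73e-10). Every treated library was above every control library, and the glabridin libraries were above those with melanosomes alone. ALDH1L2, a mitochondrial folate enzyme, did not pass the test between the treated groups, with 0.0458, 0.0452 and 0.0495 CPM in control, 16, 13.9 and 15.5 CPM with melanosomes and 11.6, 16.2 and 13.2 CPM with glabridin (log2 change 8.11 ± 0.49 SE, adjusted p = 1.35e-09). INHBE, which encodes a secreted activin subunit, read 0.138, 0.136 and 0.198 CPM in control, 0.271, 0.141 and 0.582 CPM with melanosomes and 20.3, 9.45 and 21.4 CPM with glabridin (log2 change 6.75 ± 0.65 SE, adjusted p = 4.72e-07). Its control and melanosome libraries were near the detection limit. NUPR1, a small stress-induced chromatin protein, had the largest rise of the genes that crossed, with 3.02, 3.19 and 2.94 CPM in control, 1.22, 1.74 and 1.69 CPM with melanosomes and 44.4, 24.8 and 43.6 CPM with glabridin (log2 change 3.62 ± 0.22 SE, adjusted p = 1.9e-07).

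Effectors of this response followed the same order. TRIB3, an inhibitory pseudokinase, averaged 23.4, 60.5 and 561 CPM, ATF3 averaged 12, 18.2 and 143 CPM, and DDIT3, which encodes CHOP, 11.1, 21.5 and 97.1 CPM in control, melanosome and glabridin groups. ASNS, which makes asparagine, had log2 changes against control of 3.42 with melanosomes and 4.45 with glabridin, and CHAC1, which degrades glutathione, of 4.13 and 5.59. PPP1R15A, which encodes the GADD34 subunit that reverses the eIF2 alpha signal, had 0.46 and 2.93. The C/EBP-ATF response element was searched as TGATGNAA on both strands. It was held by 4 of the 30 list promoters in the table (13.3%), against 3.14% of all promoters and 1.45% of those of genes tested. The list was drawn up from known ATF4 targets, so this count too is a description and no independent support. The promoters of ASNS (chr7:97872409-97872658, minus strand) and CHAC1 (chr15:40953221-40953470, plus strand) are printed because their match is to this element.
ASNS: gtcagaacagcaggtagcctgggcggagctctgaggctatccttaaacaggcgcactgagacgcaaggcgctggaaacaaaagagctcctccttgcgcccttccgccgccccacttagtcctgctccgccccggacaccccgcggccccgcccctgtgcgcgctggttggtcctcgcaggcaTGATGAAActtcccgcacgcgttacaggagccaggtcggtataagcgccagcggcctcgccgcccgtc
CHAC1: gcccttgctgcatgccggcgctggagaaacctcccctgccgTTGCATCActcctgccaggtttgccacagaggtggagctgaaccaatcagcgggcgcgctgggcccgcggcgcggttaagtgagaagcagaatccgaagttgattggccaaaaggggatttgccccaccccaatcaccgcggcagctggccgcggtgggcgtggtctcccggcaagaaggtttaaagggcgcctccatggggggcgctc
The others with a match were ATF3 and FGF21. FGF21, a stress hormone, had no count in control or melanosome libraries and averaged 0.541 CPM with glabridin.

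Aminoacyl-tRNA synthetases, which load amino acids on tRNAs, rose in 15 of 20 cases and fell in 1, with a median of 0.83 against 0.12 with melanosomes alone. AARS1, for alanine, had 180.1, 179.9 and 178 CPM in control, 228, 234 and 246 CPM with melanosomes and 951, 659 and 902 CPM with glabridin (log2 change 2.22 ± 0.11 SE, adjusted p = 5.22e-08). MARS1, for methionine, had 69.4, 77.2 and 69.9 CPM in control, 165, 168 and 172 CPM with melanosomes and 319.5, 281 and 308 CPM with glabridin (log2 change 2.07 ± 0.066 SE, adjusted p = 2.13e-09). WARS1, for tryptophan, had 114, 114 and 110 CPM in control, 152, 158 and 159 CPM with melanosomes and 492, 377 and 520.4 CPM with glabridin (log2 change 2.04 ± 0.10 SE, adjusted p = 4.24e-08). In all 3 the groups were ordered alike with no overlap. RARS1, QARS1, NARS1 and HARS1 were not called.

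Sterol synthesis genes rose with glabridin on top of a smaller rise with melanosomes. The cholesterol list, which holds the mevalonate and sterol enzymes with INSIG1, had 20 of 25 genes higher and 1 lower, with a median of 1.13 against 0.33 with melanosomes alone. MSMO1, a sterol demethylation enzyme, stood at 85.3, 78.4 and 81.5 CPM in control, 165, 156 and 134 CPM with melanosomes and 794, 641 and 929.8 CPM with glabridin (log2 change 3.27 ± 0.12 SE, adjusted p = 8.96e-09). INSIG1, which holds back the SREBP factors when sterols are plentiful, read 168, 169 and 178 CPM, 211, 202 and 201 CPM and 1274, 1284 and 1473 CPM in the same order (log2 change 2.97 ± 0.065 SE, adjusted p = 4.81e-10). HMGCS1, the first committed mevalonate enzyme, read 31.9, 29 and 28.3 CPM, 48.9, 40.4 and 42.5 CPM and 224, 193 and 272 CPM (log2 change 2.95 ± 0.12 SE, adjusted p = 1.33e-08). TM7SF2, a sterol reductase, was the gene that fell, at -0.89 on the log2 scale, and SREBF2, the gene of the regulating factor, was not called at -0.16. Without glabridin replicate 1 the count of falls was 2, and without replicate 3 it was 4.

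In the fatty acid and lipid storage list 18 of 24 genes rose and none fell. FASN, the fatty acid synthase, was higher by 1.23 ± 0.17 SE and FADS1, a desaturase, by 4.05 ± 0.19 SE on the log2 scale, the latter with 4.08 already with melanosomes alone. PDK4, a kinase that limits pyruvate oxidation, had no count in any control library, 136, 115 and 107 CPM with melanosomes and 332, 493 and 378 CPM with glabridin. Against 3 counts over the control group, equal to 0.0234 CPM, its level with glabridin was at least 17167-fold higher. SCD, the stearoyl desaturase, crossed from below control, averaging 2547, 1668 and 3718 CPM.

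Immediate early genes were mostly raised. Of 26 genes of the AP-1 list, 25 rose and 1 fell, with a median of 1.19 against 0.17 with melanosomes alone, and 22 were higher than in the melanosome group. DUSP4, a phosphatase of MAP kinases, went from 2.27, 3.26 and 3.07 CPM to 101, 111 and 111 CPM with melanosomes and 213, 322 and 164 CPM with glabridin (log2 change 6.34 ± 0.24 SE, adjusted p = 1.05e-08). KLF2, a zinc finger factor, read 0.412, 0.362 and 0.148 CPM, 7.58, 8.19 and 8.15 CPM and 28.9, 38 and 23.2 CPM (log2 change 6.58 ± 0.33 SE, adjusted p = 1.13e-08). NR4A1, an orphan nuclear receptor, read 3.53, 2.71 and 2.67 CPM, 10.9, 11.5 and 11.8 CPM and 35.6, 44.1 and 32.4 CPM (log2 change 3.65 ± 0.14 SE, adjusted p = 1.05e-08). In all 3, glabridin replicate 2 was the highest library. JUN averaged 9.37, 18.4 and 85.9 CPM. On the log2 scale FOSL1 rose by 2.58 ± 0.093 SE and JUNB, only with glabridin, by 1.16 ± 0.22 SE. BTG2, an antiproliferative gene, was the one that fell, at -0.74.

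Several ligands of the EGF receptor and several cytokines rose, and 3 receptor genes of the family fell. AREG, or amphiregulin, had 9.26, 8.5 and 8.18 CPM in control, 18.5, 19.1 and 20.2 CPM with melanosomes and 70.4, 57.6 and 77.2 CPM with glabridin (log2 change 2.98 ± 0.11 SE, adjusted p = 6.69e-09). HBEGF, a heparin-binding ligand, had 15.2, 14.8 and 13.5 CPM, 22.1, 21.4 and 20.9 CPM and 109.9, 107 and 102 CPM (log2 change 2.87 ± 0.07 SE, adjusted p = 7.46e-10). Both ligands were higher in every glabridin library than in any other library. The receptor genes EGFR, ERBB2 and ERBB3 fell with log2 changes of -0.69, -0.79 and -0.66, and none of them was called between the treated groups. The cytokine list also holds the NF-kappaB genes TNFAIP3, NFKBIA and NFKB2 and the adhesion molecule ICAM1. Of 20 genes tested in it, 10 rose and 2 fell, where 37.6% of all genes tested rose and 32.7% fell. With melanosomes alone 12 rose and 3 fell, and the median was 0.52 against 0.45 with glabridin. Between the treated groups 7 were higher with glabridin, 4 were lower and 9 were not called. IL1B, an interleukin-1, read 22.6, 23.7 and 20.9 CPM, 60.4, 58.8 and 60.7 CPM and 181, 182 and 174 CPM (a 7.98-fold rise, adjusted p = 3.62e-10). IL1A, the other interleukin-1, read 2.52, 2.22 and 2.67 CPM, 6.39, 6.08 and 5.74 CPM and 28.4, 19.7 and 35.8 CPM (log2 change 3.50 ± 0.20 SE, adjusted p = 1.21e-07). TNFAIP3, a brake on NF-kappaB, was raised in both treated groups, and its 2 log2 changes against control were 2.89 and 3.31. The falls with glabridin were those of CXCL1, at -2.33, and CCL2, at -1.43, both under 2 CPM in control.

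**Figure D4:**
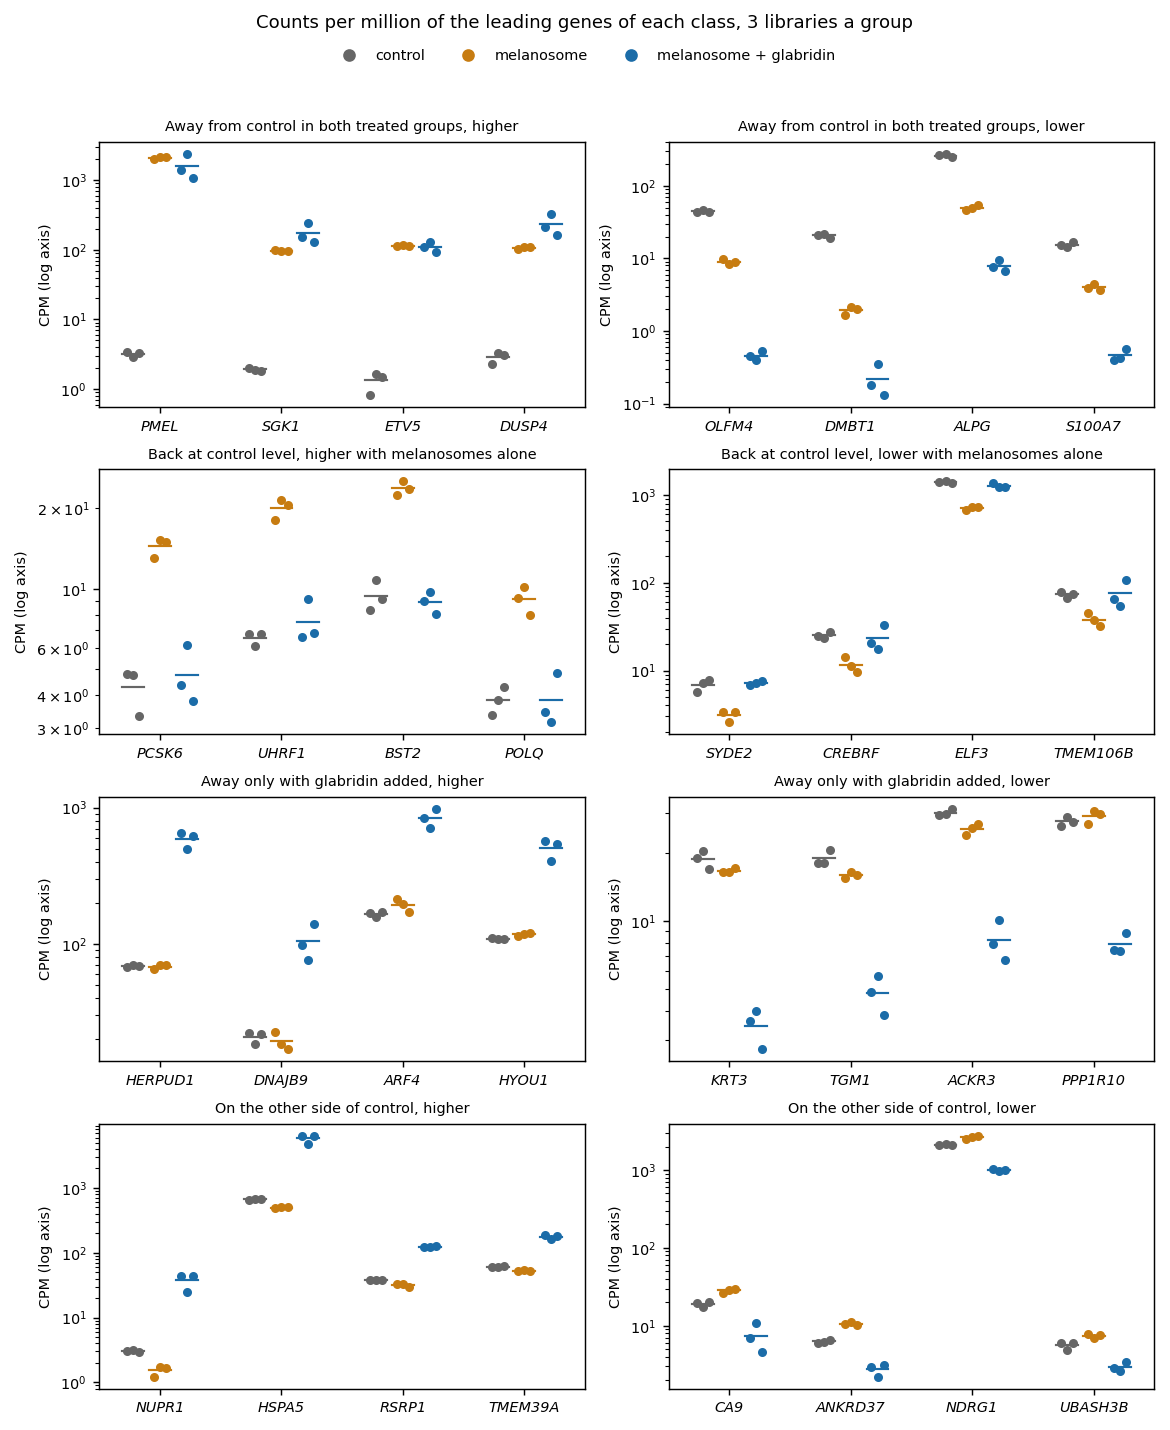
CPM on log axes for the 4 leading genes of each class and direction; each point is a library in replicate order and bars are group means. HERPUD1 and HYOU1 overlap or nearly touch between control and melanosome groups and are above 400 CPM in all glabridin libraries, while OLFM4 falls at each step.

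Genes that stayed away from control with glabridin began with those of pigment cells. PMEL, the fibril protein of melanosomes (ENSG00000185664, chr12:55954105-55973317), read 3.46, 2.85 and 3.29 CPM in control, 2037, 2122 and 2167 CPM with melanosomes and 1383, 2361 and 1063 CPM with glabridin (log2 change 8.97 ± 0.28 SE, adjusted p = 4.33e-09). Every treated library was far above control, and the treated groups overlapped, since glabridin replicate 2 was above and replicates 1 and 3 below the melanosome range (adjusted p = 0.171 between those groups). Not all pigment genes were like PMEL in this. Of the 29 melanocyte markers, 11 were lower and 2 higher with glabridin than with melanosomes alone, and 16 were not called. The shares of all genes tested were 20.2% lower and 23.7% higher. TYR, the key enzyme of melanin synthesis, TRPM1, a melanocyte channel, and KIT, a receptor of melanocytes, had no count in any control library. Against 3 counts over the control group they were at least 4116-fold, 6058-fold and 1487-fold higher with glabridin. If the 2 mates of a pair were counted apart, these bounds would be lower. MITF, the melanocyte factor that also acts on lysosomal genes, had 4.65, 4.7 and 5.04 CPM in control, 111, 98 and 91.6 CPM with melanosomes and 49.7, 55.2 and 54.4 CPM with glabridin (log2 change 3.47 ± 0.091 SE, adjusted p = 1.09e-09).

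In all, 245 genes had no more than 3 counts per control library together with a glabridin mean of at least 1 CPM, and 234 of them also had at least 1 CPM in the melanosome group. The 245 genes held 0.276%, 0.387% and 0.260% of counts in glabridin replicates 1, 2 and 3. By the same definition with at most 3 counts in each melanosome library as well, 1 gene appeared with glabridin alone. This was PAPPA2, a protease that cleaves an IGF-binding protein, with 86, 36 and 192 counts in glabridin libraries, 2 counts in all control libraries and 4 in all melanosome libraries.

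Other genes that stayed high were not pigment genes by name. SGK1, a kinase induced by glucocorticoids and stress, read 2.02, 1.9 and 1.83 CPM, 98.7, 96.7 and 95.2 CPM and 151, 243 and 129 CPM in control, melanosome and glabridin groups (log2 change 6.50 ± 0.24 SE, adjusted p = 5.83e-09). ETV5, an ETS factor downstream of MAP kinase signals, read 0.825, 1.67 and 1.51 CPM, 114, 115 and 114 CPM and 109, 128 and 94 CPM (log2 change 6.37 ± 0.20 SE, adjusted p = 1.52e-09). In the matrix and TGF-beta list 20 of 34 genes rose and 7 fell. VIM, which encodes the intermediate filament vimentin, read 0.183, 0.0904 and 0.272 CPM in control, 623, 638 and 661 CPM with melanosomes and 524, 731 and 458 CPM with glabridin (log2 change 11.61 ± 0.48 SE, adjusted p = 5.15e-10). COL6A1 and COL6A2, subunits of collagen VI, were at 0.342 and 0.0309 CPM in control and at 48.9 and 38.1 CPM with glabridin. VIM and the collagen genes were highest in glabridin replicate 2, as were SGK1, ETV5 and the melanocyte marker sum. This was general, since over all genes that stayed higher the median log2 ratio of glabridin replicate 2 to replicate 3 was 0.25. Over all genes tested it was -0.012. From which cells these transcripts came was not tested. TIMP3, a metalloproteinase inhibitor, went the other way, with a log2 change of -2.16.

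Mitosis genes mostly stayed high. Of 34 tested, 27 rose and 3 fell against control, with a median of 1.19, and all 27 had also risen with melanosomes alone, where the median was 1.56. Glabridin moved 16 of those 27 part of the way back, and none was higher than in the melanosome group. CDC20, which activates the anaphase-promoting complex, had 31.7, 31.7 and 31.1 CPM in control, 138, 146 and 156 CPM with melanosomes and 159, 143 and 152 CPM with glabridin (log2 change 2.26 ± 0.065 SE, adjusted p = 1.35e-09). KIF2C, a microtubule-depolymerising kinesin, had 16, 16.2 and 15.8 CPM, 80.4, 82.1 and 86.8 CPM and 79.3, 80.9 and 76.6 CPM (log2 change 2.30 ± 0.061 SE, adjusted p = 1.09e-09). CENPA, the histone of the centromere, had 3.5, 4.43 and 3.56 CPM, 18, 18.2 and 17.4 CPM and 18.9, 17.3 and 24.8 CPM (log2 change 2.41 ± 0.15 SE, adjusted p = 2.02e-07). For these 3 genes the treated groups overlapped. The falls were those of CENPE, CENPF and ECT2, and their count was 1 without control replicate 3 or glabridin replicate 1 and 5 without glabridin replicate 3.

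NRF2 targets and lysosomal genes mostly stayed high. Of 30 antioxidant genes, 23 rose and 3 fell, and 19 were higher in both treated groups. HMOX1, the haem oxygenase, read 1.38, 1.9 and 1.53 CPM, 29, 29.9 and 31.4 CPM and 28.8, 36.7 and 26.5 CPM (log2 change 4.25 ± 0.16 SE, adjusted p = 5.19e-09), with overlap between the treated groups. NQO1, a quinone reductase, read 115, 114 and 119 CPM, 486, 480 and 469 CPM and 790.4, 1171 and 657 CPM (log2 change 2.92 ± 0.16 SE, adjusted p = 1.31e-07). GPX2, a glutathione peroxidase of epithelia, fell with a log2 change of -1.67. Of 63 lysosomal genes, 42 rose and 8 fell, with a median of 0.51 against 0.22. CTSF, a cathepsin, had 2.61, 2.94 and 3.34 CPM in control, 35.6, 35.8 and 37.7 CPM with melanosomes and 37.5, 56 and 26.4 CPM with glabridin (log2 change 3.75 ± 0.24 SE, adjusted p = 2.89e-07). RRAGD, a GTPase of lysosomal nutrient sensing, had no control count and 15.7, 21.3 and 15.2 CPM with glabridin, at least 744-fold above the same floor. CTSF and RRAGD were highest in glabridin replicate 2, as were HMOX1, NQO1 and the melanocyte sum. PSAP, the saposin precursor, averaged 1658, 3328 and 4116 CPM.

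Nuclear and mitochondrial genes of oxidative phosphorylation moved apart. Of 66 nuclear-encoded genes, 50 rose and 3 fell, with a median of 0.53, and without glabridin replicate 2 the falls numbered 7. With melanosomes alone 45 were already higher and 5 lower, with a median of 0.39. Between the treated groups 14 were higher with glabridin, 1 was lower and 51 were not called. ATP5MC1, a ring subunit of ATP synthase, read 23.5, 22.9 and 22.7 CPM, 58.6, 71.7 and 68 CPM and 57.9, 76.3 and 46.3 CPM in control, melanosome and glabridin groups (log2 change 1.39 ± 0.15 SE, adjusted p = 1.55e-05). UQCRC1, a complex III core subunit, read 187, 187 and 197 CPM, 353, 393 and 398 CPM and 419, 573 and 344 CPM (log2 change 1.23 ± 0.15 SE, adjusted p = 2.68e-05). All 13 mitochondrially encoded genes fell, with a median of -1.12 against -0.46 with melanosomes alone, and 12 of 13 were lower than in the melanosome group. MT-ND1, a complex I subunit, had 586, 548 and 524 CPM in control, 334, 401 and 396 CPM with melanosomes and 168, 132 and 177 CPM with glabridin (log2 change -1.80 ± 0.11 SE, adjusted p = 1.87e-07). MT-CYB, cytochrome b of complex III, had 3204, 2807 and 2897 CPM, 1709, 1956 and 1939 CPM and 843, 1035 and 884 CPM (log2 change -1.69 ± 0.089 SE, adjusted p = 6.67e-08). Both were ordered control, melanosome, glabridin with no overlap.

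Most epithelial defence genes were low with melanosomes and lower still with glabridin. Of 24 tested, 18 fell and 5 rose against control, with a median of -1.77, against 16 lower, 4 higher and a median of -0.89 with melanosomes alone. OLFM4, a secreted glycoprotein of mucosa (ENSG00000102837, chr13:53028759-53052057), had 44.1, 47.2 and 44.2 CPM in control, 9.71, 8.35 and 8.97 CPM with melanosomes and 0.449, 0.402 and 0.526 CPM with glabridin (log2 change -6.61 ± 0.14 SE, adjusted p = 2.93e-10). DMBT1, a scavenger receptor that binds microbes, had 21, 21.8 and 19.4 CPM, 1.65, 2.11 and 2.03 CPM and 0.18, 0.352 and 0.131 CPM (log2 change -6.57 ± 0.29 SE, adjusted p = 2.9e-09). S100A7, the antimicrobial psoriasin, had 15.1, 14.3 and 16.8 CPM, 3.88, 4.39 and 3.71 CPM and 0.404, 0.427 and 0.57 CPM (log2 change -5.03 ± 0.18 SE, adjusted p = 1.76e-09). Each fell in steps without overlap, and the glabridin libraries were under 1 CPM. ALPG, a germ cell alkaline phosphatase outside the list, fell likewise, from 262, 274 and 249 CPM to 46.8, 49.6 and 53.9 CPM and 7.61, 9.4 and 6.62 CPM (log2 change -5.06 ± 0.11 SE, adjusted p = 6.08e-10). C3, the central complement component, averaged 568, 231 and 113 CPM. LCN2, an iron-binding defence protein, was a member that rose only with glabridin, by 0.89 ± 0.13 SE.

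Large coiled-coil proteins of Golgi and centrosome, transcripts with a median length of 9484 bases, were lower in 20 of 21 cases, with a median of -1.66 against -1.50 with melanosomes alone. GCC2, a Golgi tether, had 25.9, 25.6 and 27.4 CPM in control, 5.89, 4.5 and 4.78 CPM with melanosomes and 2.67, 1.51 and 5.21 CPM with glabridin (log2 change -3.06 ± 0.31 SE, adjusted p = 9.41e-06). AKAP9, a scaffold at the Golgi and centrosome, had 31.4, 30.9 and 30.3 CPM, 4.92, 5.11 and 4.64 CPM and 3.46, 2.54 and 6.31 CPM (log2 change -2.90 ± 0.24 SE, adjusted p = 2.17e-06). Glabridin replicate 2 was the lowest and replicate 3 the highest of their group in both. Over 13907 genes the log2 change against control had a Spearman correlation of -0.177 with transcript length and 0.213 with GC content. Over the same genes the log2 ratio of glabridin replicate 2 to replicate 3 had correlations of -0.347 with length and 0.525 with GC content. The list had a median GC content of 39.9%, against 48.8% for all genes tested. Genes are not independent replicates, and the part of length and GC content in these falls was not tested.

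Ribosomal protein genes came back toward control. They have many processed pseudogene copies, so the assignment of their reads is uncertain. Of 74 tested, 73 were lower with melanosomes alone and 71 were higher with glabridin than with melanosomes. Against control, 36 were lower and none was called higher with glabridin, with a median of -0.19 against -0.60 with melanosomes, and 36 had returned to control level. RPLP1 and RPL8 were examples of return, with log2 changes against control of -0.50 and -0.46 with melanosomes and -0.091 and -0.073 with glabridin. RPS6, a subunit phosphorylated by S6 kinase, stayed low, with 2329, 2341 and 2263 CPM in control, 1016, 1066 and 1049 CPM with melanosomes and 1276, 1258 and 1211 CPM with glabridin (log2 change -0.89 ± 0.05 SE, adjusted p = 8.94e-08). RPL6 did not pass the test between the treated groups, with 1288, 1262 and 1245 CPM, 659, 685 and 664 CPM and 669, 663 and 670.2 CPM (log2 change -0.92 ± 0.047 SE, adjusted p = 4.3e-08). Under the 4 scalings the returned count ran from 22 with library totals alone to 36 with TMM or RLE, and 7 genes were called higher than control when glabridin replicate 3 was left out. When the test asked for a change of more than 1.2-fold, 20 genes were lower.

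Replication genes had been raised with melanosomes and were divided with glabridin. Of 36 tested, 32 had risen with melanosomes and 24 were lower with glabridin than with melanosomes. Against control, 15 rose and 7 fell, 9 had returned and 4 had crossed, where 1 of the 34 mitosis genes, NDC80, had returned. UHRF1, which guides DNA methylation after replication, read 6.76, 6.13 and 6.8 CPM in control, 18.1, 21.4 and 20.6 CPM with melanosomes and 6.6, 9.17 and 6.86 CPM with glabridin, and was not called against control (log2 change 0.20 ± 0.14 SE, adjusted p = 0.217). POLQ, a polymerase of DNA end joining outside the list, read 3.37, 3.84 and 4.3 CPM, 9.26, 10.2 and 7.95 CPM and 3.46, 3.17 and 4.84 CPM (log2 change -0.0019 ± 0.18 SE, adjusted p = 0.993). MCM5 and MCM10, parts of the replicative helicase machinery, had returned, with log2 changes of 0.19 and 0.15 against control. MCM3, PCNA, POLA2 and POLE were the 4 that crossed to below control, at -0.56, -0.29, -0.61 and -0.34. CDC6 and CDT1, which license replication origins, were still high at 1.97 and 1.33.

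Interferon-stimulated genes were lower with glabridin than with melanosomes alone in 21 of 37 cases and higher in 1, against 20.2% and 23.7% of all genes tested. Relative to control, 20 were higher and 5 lower with melanosomes alone, and 15 were higher and 11 lower with glabridin, near the 37.6% and 32.7% of all genes. The median against control was 0.019, and it ran from -0.047 to 0.065 over the alternatives. BST2, an antiviral membrane tether, returned, with 8.29, 10.8 and 9.2 CPM in control, 22.5, 25.2 and 23.8 CPM with melanosomes and 9, 9.72 and 8.02 CPM with glabridin (log2 change -0.08 ± 0.12 SE, adjusted p = 0.562). IFI27 stayed part of the way up, with 4.4, 4.16 and 4.47 CPM, 86.4, 103 and 90.5 CPM and 33.5, 38.5 and 30.9 CPM (log2 change 2.98 ± 0.11 SE, adjusted p = 4.48e-09). IFI6 did likewise, with 9.64, 9.27 and 10.1 CPM, 169, 198 and 176 CPM and 68.8, 75.6 and 67.5 CPM (log2 change 2.87 ± 0.08 SE, adjusted p = 1.18e-09). Both were lower with glabridin than with melanosomes, without overlap. SAMD9, an antiviral factor, fell in both treated groups, with 176, 178 and 176 CPM, 50.5, 43.6 and 38 CPM and 13.4, 11.4 and 25.9 CPM (log2 change -3.38 ± 0.24 SE, adjusted p = 8.95e-07). Of 15 genes of class I antigen presentation, 8 fell and 4 rose, and PSMB10, an immunoproteasome subunit, had the largest fall (-1.49 ± 0.085 SE).

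Of genes outside the lists that returned from above, PCSK6, a proprotein convertase, read 4.81, 4.75 and 3.34 CPM in control, 13, 15.2 and 15 CPM with melanosomes and 4.36, 6.16 and 3.81 CPM with glabridin (log2 change 0.14 ± 0.19 SE, adjusted p = 0.523). From below, ELF3, an epithelial ETS factor, read 1402, 1428 and 1382 CPM, 684, 725 and 732 CPM and 1376, 1220 and 1246 CPM (log2 change -0.13 ± 0.059 SE, adjusted p = 0.0669). With upper-quartile factors or library totals alone, or without glabridin replicate 1, ELF3 was called lower than control, the lowest value being -0.20. SYDE2, a GTPase activator, read 5.75, 7.17 and 7.81 CPM, 3.35, 2.58 and 3.33 CPM and 6.8, 7.14 and 7.67 CPM (log2 change 0.06 ± 0.14 SE, adjusted p = 0.722). TMEM106B, a lysosomal membrane protein, read 79.2, 66.6 and 75.1 CPM, 44.9, 37.4 and 31.9 CPM and 66.2, 54.4 and 106 CPM (log2 change 0.039 ± 0.21 SE, adjusted p = 0.879). CREBRF, a regulator of the CREB3 factors, read 24.8, 23.3 and 27.4 CPM, 14.3, 11.2 and 9.6 CPM and 20.7, 17.5 and 32.7 CPM (log2 change -0.09 ± 0.21 SE, adjusted p = 0.721), and without glabridin replicate 3 it was called lower at -0.40. The glabridin libraries of TMEM106B and CREBRF ranged more widely than control.

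Glycolysis and hypoxia genes were mostly lower with glabridin than with melanosomes alone, in 25 of 34 cases, where 20.2% of all genes tested were lower. With melanosomes alone 19 of 34 were higher and 5 lower, with a median of 0.40. With glabridin 10 were higher and 17 lower, with a median of -0.17 that stayed negative under every alternative run. TPI1 and ENO1, glycolytic enzymes, returned to control level, with log2 changes against control of 0.57 and 0.53 with melanosomes and 0.0093 and -0.088 with glabridin. PGK1 crossed, at 0.46 and -0.50, and LDHA, which makes lactate, averaged 1789, 2062 and 814 CPM in control, melanosome and glabridin groups.

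Targets of the hypoxia factor HIF led the genes that crossed downward. CA9, carbonic anhydrase 9, had 19.5, 17.4 and 19.9 CPM in control, 26.7, 29.2 and 29.9 CPM with melanosomes and 6.89, 11 and 4.56 CPM with glabridin (log2 change -1.35 ± 0.24 SE, adjusted p = 0.000449). NDRG1, a stress-responsive gene, had 2085, 2165 and 2093 CPM, 2532, 2636 and 2736 CPM and 1026, 957 and 996 CPM (log2 change -1.09 ± 0.054 SE, adjusted p = 3.71e-08). ANKRD37, an ankyrin repeat protein, had 6.07, 6.24 and 6.53 CPM, 10.4, 11.1 and 10.2 CPM and 2.92, 2.21 and 3.15 CPM (log2 change -1.18 ± 0.13 SE, adjusted p = 1.75e-05). In all 3 the melanosome libraries were above and the glabridin libraries below every control library. EGLN3, a prolyl hydroxylase that marks HIF for degradation and is itself a target, fell in both treated groups, with 85.1, 85.2 and 87 CPM, 57.2, 57 and 57.2 CPM and 8.55, 6.83 and 7.97 CPM (log2 change -3.46 ± 0.081 SE, adjusted p = 6.15e-10). Members that rose included SLC2A3, a glucose transporter, at 0.733, 0.452 and 0.519 CPM, 46.6, 46.4 and 47.1 CPM and 39.4, 50.8 and 37.5 CPM (log2 change 6.22 ± 0.20 SE, adjusted p = 1.18e-09), and VEGFA, the vascular growth factor, which rose only with glabridin by 1.60 ± 0.10 SE. UBASH3B, a tyrosine phosphatase outside the list, also crossed downward, from 5.96, 4.82 and 5.93 CPM and 7.77, 7.01 and 7.59 CPM to 2.83, 2.59 and 3.42 CPM (log2 change -0.92 ± 0.14 SE, adjusted p = 0.000165).

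RSRP1 and TMEM39A led the upward crossings outside the lists. RSRP1, an arginine and serine rich protein, had 37.8, 37.9 and 38.6 CPM in control, 33.3, 32.6 and 29.3 CPM with melanosomes and 122, 124 and 126 CPM with glabridin (log2 change 1.71 ± 0.064 SE, adjusted p = 5.87e-09). TMEM39A, an ER membrane protein linked to autophagy, had 61, 60.7 and 61.6 CPM, 52, 54.8 and 52.2 CPM and 186, 160.5 and 183 CPM (log2 change 1.53 ± 0.066 SE, adjusted p = 1.54e-08). Under the 3 other scalings TMEM39A, and under library totals alone RSRP1, counted as higher only with glabridin.

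Autophagy genes, which the series title puts at the centre, moved in both directions. Of 46 core and receptor genes, 22 rose and 10 fell against control, where 37.6% of all genes tested rose and 32.7% fell. The median of the list was 0.15, and melanosomes alone gave 9 higher, 16 lower and a median of -0.054. By class, 13 were higher only with glabridin, 8 stayed higher, 8 stayed lower and 7 had returned from below. With library totals alone the counts were 5, 15, 7 and 0, so these classes depended on the scaling. Over all genes tested, with TMM, the shares of these classes were 7.44%, 25.3%, 24.1% and 3.9%. SQSTM1, the receptor p62 (ENSG00000161011, chr5:179806398-179838078), had 330.1, 335 and 331 CPM in control, 329, 335 and 351 CPM with melanosomes and 826, 648 and 775 CPM with glabridin (log2 change 1.17 ± 0.08 SE, adjusted p = 4e-07). MAP1LC3B, which encodes the LC3 protein of autophagosome membranes, had 114, 116 and 116 CPM, 127, 122 and 121 CPM and 246, 215 and 268 CPM (log2 change 1.07 ± 0.075 SE, adjusted p = 4.56e-07). LAMP1, a lysosomal membrane protein, had 446, 444 and 443 CPM, 425, 466 and 474 CPM and 614, 603 and 536 CPM (log2 change 0.40 ± 0.065 SE, adjusted p = 0.000287). For SQSTM1 and LAMP1 the control and melanosome libraries overlapped, and in all 3 genes the glabridin libraries were above both groups. TFEB, a master factor of lysosome genes, was not called at 24.8, 23.1 and 23.7 CPM, 22.2, 24.4 and 24 CPM and 24.1, 23 and 21.4 CPM (log2 change -0.063 ± 0.082 SE, adjusted p = 0.504), and its 95% interval was -0.24 to 0.12.

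Members of the initiation machinery differed from each other. ATG101 of the ULK1 complex had 54.6, 54 and 54.7 CPM in control, 57.4, 62.1 and 69.1 CPM with melanosomes and 142, 138 and 132 CPM with glabridin (log2 change 1.33 ± 0.072 SE, adjusted p = 7.27e-08), and ULK1, the kinase itself, rose only with glabridin by 0.74 ± 0.13 SE. RB1CC1, the FIP200 scaffold of the same complex, fell, with 200.1, 189 and 199 CPM, 54.3, 50.4 and 46.7 CPM and 38.1, 25.8 and 74.5 CPM (log2 change -2.08 ± 0.28 SE, adjusted p = 8.56e-05). PIK3C3, the lipid kinase, fell at -1.30. The glabridin libraries of RB1CC1 ranged from 25.8 to 74.5 CPM, all under control. WIPI1, which binds its lipid product, was high in both treated groups, with 9.3, 9.43 and 8.28 CPM, 65.7, 67.6 and 73.6 CPM and 89.7, 105 and 84.7 CPM (log2 change 3.37 ± 0.096 SE, adjusted p = 1.35e-09). Of 18 mitophagy genes, 6 rose and 6 fell, near the 37.6% and 32.7% of all genes tested, and 3 rose with upper-quartile factors and without control replicate 1, control replicate 3 or glabridin replicate 1. Against control the receptors BNIP3 and BNIP3L parted, and both were lower with glabridin than with melanosomes alone (log2 changes of -1.20 and -0.69). BNIP3 rose, at 5.66, 5.27 and 5.46 CPM, 38.8, 39.5 and 38.2 CPM and 14.9, 22.3 and 13.6 CPM (log2 change 1.63 ± 0.16 SE, adjusted p = 7.42e-06). BNIP3L fell, at 93.5, 86.7 and 92 CPM, 87.6, 75.1 and 72.8 CPM and 43.5, 47.7 and 54.8 CPM (log2 change -0.90 ± 0.097 SE, adjusted p = 1.2e-05).

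**Figure D5:**
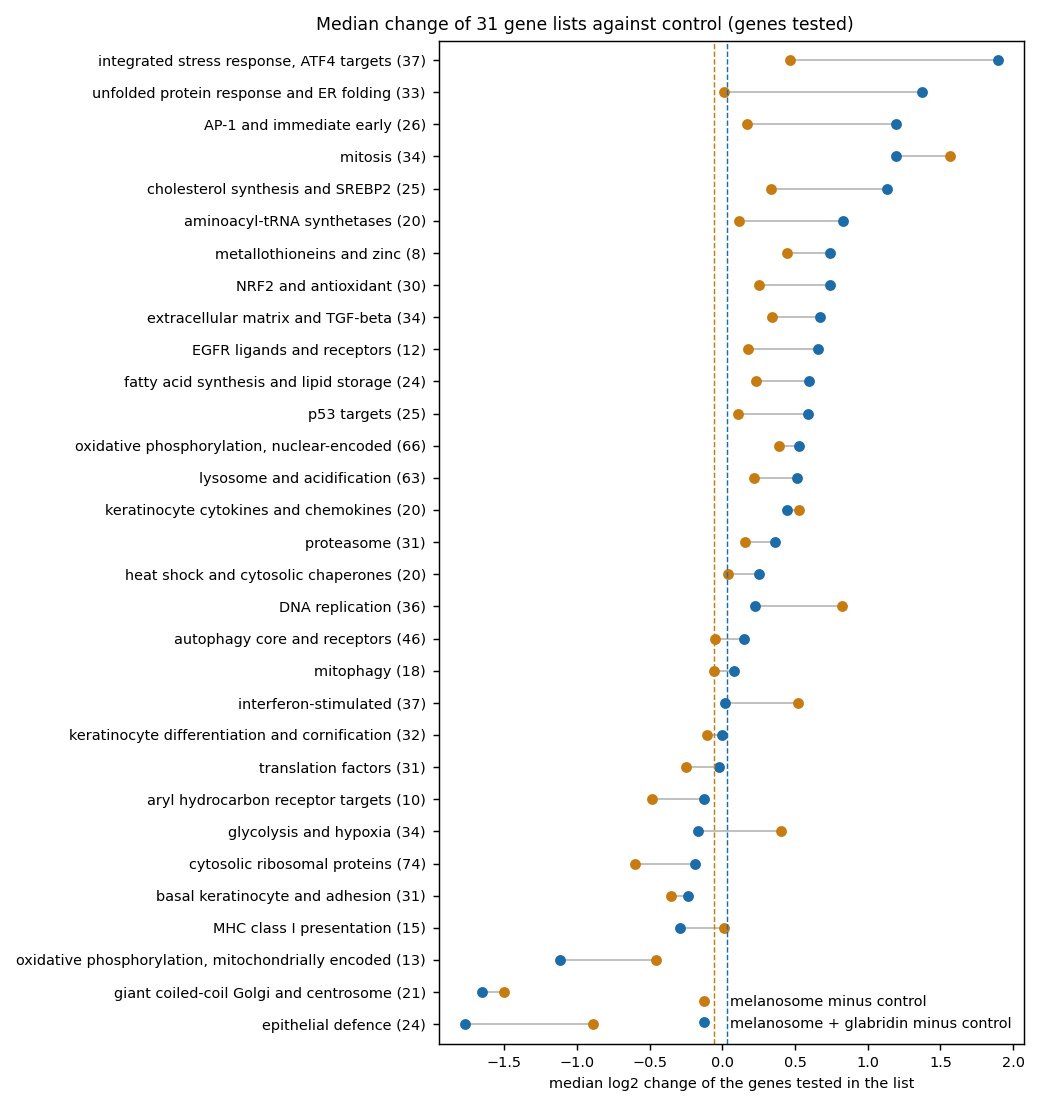
Median log2 change against control of the genes tested in 31 lists, for the melanosome group and for the glabridin group; dashed lines are the medians of all genes tested, -0.058 and 0.035. Both comparisons share the control libraries. The unfolded protein response moves from 0.014 to 1.38 and glycolysis and hypoxia from 0.40 to -0.17.

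Cornification genes had 12 higher and 12 lower among 32 tested, near the shares of all genes tested (37.6% and 32.7%). ALOX12B and ALOXE3, lipoxygenases of the skin barrier with under 5 CPM, rose by 5.12 and 4.60, and the largest changes of more abundant members were falls. IVL, which encodes involucrin of the cornified envelope, had 116, 111 and 116 CPM in control, 31.6, 33.8 and 36 CPM with melanosomes and 4.44, 3.79 and 4.75 CPM with glabridin (log2 change -4.72 ± 0.091 SE, adjusted p = 2.93e-10). CASP14, the caspase of cornification, had 15.7, 14.6 and 13.7 CPM, 8.7, 7.48 and 8.69 CPM and 0.561, 0.904 and 0.745 CPM (log2 change -4.32 ± 0.17 SE, adjusted p = 4.89e-09). TGM1, the crosslinking transglutaminase, fell only with glabridin, with 18.1, 18.1 and 20.5 CPM, 15.4, 16.5 and 15.9 CPM and 4.87, 5.7 and 3.85 CPM (log2 change -1.98 ± 0.13 SE, adjusted p = 3.57e-07). In these 3 genes every glabridin library was below all others. The melanosome libraries of TGM1 were also below every control library, though not called. KRT1 fell from 7.84 to 0.0609 CPM, whereas KRT10, its usual partner, rose from 31.6 to 89.8 CPM (log2 change 1.51 ± 0.078 SE). KRT3, a keratin of corneal epithelium, fell only with glabridin, with 19, 20.4 and 17 CPM, 16.4, 16.5 and 17.1 CPM and 3.64, 4 and 2.72 CPM (log2 change -2.45 ± 0.14 SE, adjusted p = 9.26e-08).

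Basal and adhesion genes fell more often than they rose, 15 against 7 of 31, where 32.7% of all genes tested fell and 37.6% rose. With melanosomes alone 17 fell and 6 rose, and the median was -0.35 against -0.23 with glabridin. Between the treated groups 8 were higher with glabridin, 6 were lower and 17 were not called. KRT15 had 5175, 5305 and 5077 CPM in control, 3123, 3329 and 3502 CPM with melanosomes and 1321, 1606 and 1152 CPM with glabridin (log2 change -1.93 ± 0.10 SE, adjusted p = 7.47e-08). KRT5 had 5269, 5181 and 5157 CPM, 3355, 3609 and 3674 CPM and 2209, 2621 and 1917 CPM (log2 change -1.21 ± 0.097 SE, adjusted p = 1.36e-06). Both keratins were ordered control, melanosome, glabridin without overlap. KRT14, the partner of KRT5, was not called at -0.23. KRT16, a keratin of activated epidermis, rose, with 4.76, 3.89 and 3.73 CPM, 10.3, 10.7 and 11.7 CPM and 37.9, 32.1 and 35.3 CPM (log2 change 3.08 ± 0.12 SE, adjusted p = 7.51e-09). ACKR3, a scavenging chemokine receptor, and PPP1R10, a nuclear phosphatase subunit, fell only with glabridin. ACKR3 read 29.2, 29.5 and 31.2 CPM, 24, 25.8 and 26.7 CPM and 7.9, 10.1 and 6.75 CPM (log2 change -1.86 ± 0.13 SE, adjusted p = 4.72e-07). Its melanosome libraries were also below every control library, though not called. PPP1R10 read 26.3, 28.7 and 27.3 CPM, 26.7, 30.4 and 29.6 CPM and 7.43, 7.39 and 8.83 CPM (log2 change -1.80 ± 0.098 SE, adjusted p = 7.95e-08).

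The remaining lists are given briefly. Of 25 p53 targets, 13 rose, 4 fell and 8 were not called, where 37.6% of all genes tested rose and 32.7% fell. With melanosomes alone 8 rose and 5 fell. BBC3, which encodes the death protein PUMA, rose by 2.95 ± 0.089 SE, and CDKN1A, the p21 inhibitor of cyclin kinases, by 1.84 ± 0.058 SE. TP53INP1 had the largest fall, at -2.59. MDM2, the ligase that degrades p53, fell with a change of -1.08, and ZMAT3 and BTG2 fell at -0.44 and -0.74. Of 20 heat shock genes, 10 rose and 6 fell, against 37.6% and 32.7% of all genes tested, and without glabridin replicate 1 the falls numbered 3. HSPB8 had the largest change, averaging 0.358, 19.7 and 19.1 CPM in control, melanosome and glabridin groups (log2 change 5.72 ± 0.32 SE). Its rise was already 5.77 with melanosomes alone. DNAJB1 rose only with glabridin, by 1.28 ± 0.13 SE, and HSP90AA1 fell at -1.15. Of 31 translation factors, 9 rose and 11 fell, again near the shares of all genes, with EIF4EBP1, the brake on cap-dependent translation, up by 2.58 ± 0.069 SE and EIF5, a start codon factor, at -2.28. Of 31 proteasome genes, 20 rose and 1, PSMA4, fell, and 4 fell without glabridin replicate 3. Of 8 metallothionein and zinc genes, 6 rose and 2 fell, and MT2A rose by 1.23 ± 0.086 SE. Of 10 genes of the aryl hydrocarbon receptor list, 2 rose, 3 fell and 5 were not called. NQO1, which the antioxidant list also holds, rose by 2.92 ± 0.16 SE, and TIPARP, a target of the receptor, crossed to higher at 0.40. CYP1A1 and CYP1B1, cytochrome targets of the receptor, stayed low, at -0.92 and -2.23, and the former was higher than with melanosomes alone (log2 change 0.97 ± 0.063 SE, adjusted p = 1.3e-06).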

How the data were processed

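The libraries were paired 150-base, strand-specific poly(A) libraries, per the labels' protocols, and the submitters' processing notes name hg38 as the build. Which aligner, counting program, strand setting and annotation were used, and how mates of a pair were counted, is not stated in the sources read here. The authors deposited raw counts per gene and TPM for each library, per the file headers. In every library 69.9% to 72.2% of counts from 1 to 49 were even. The deposited counts were fitted with edgeR 4.0.16 (R 4.3.3, quasi-likelihood test, TMM factors, its default filter on low counts) over all 9 libraries, with no covariate and Benjamini-Hochberg adjustment over 13912 genes. CPM was computed from the same counts. Standard errors come from the fitted model, and the script was tested on simulated data.

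The deposited TPM entered only an alternative with limma 3.58.1 on log2(TPM + 1). DESeq2 1.42.0, other scalings, filters, a replicate block and leaving out each library were the other alternatives. Gene coordinates are those of GENCODE 29 on GRCh38, and promoter sequences are from RefSeq (GRCh38.p14). The list name DDX58 was read as RIGI, and SOD2 and LOR were not used here.

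The comparison and the gene lists were chosen with earlier results of these data known. Genes named with library values were taken by a rule: in each class the 4 with the largest rise and the 4 with the largest fall, with at least 1 CPM in control, a mean of at least 5 CPM and groups that did not overlap; in each list up to 3 called members with the largest change; the genes SQSTM1, MAP1LC3B, LAMP1, TFEB, PMEL and HMOX1; and genes seen with glabridin alone. Other members were named after their values were seen. Some list members are not reported here by name.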

Additional observations from a re-analysis of the deposited data

How the results depend on the processing

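The count of genes called against control stayed within 1.5 times of 9774 under every alternative run, from 7785 when a change of more than 1.2-fold was asked for to 10511 without glabridin replicate 3, and 50.3% to 54.4% of those called were higher. The replicate block gave 9507 genes, 5044 higher and 4463 lower. The replicate numbers showed no sign of pairing the libraries. The deviations of same-numbered libraries had correlations from -0.234 to 0.050, and those of differently numbered libraries from -0.198 to 0.273. With 3 libraries a group, this cannot show that no cultures were shared. Of the genes named by rule, none reversed its direction or lost its call against control, and ELF3 and CREBRF were called lower under 4 alternatives in all. Genes named outside the rule were not followed in this way, and of these PSPH lost its call under RLE scaling and with DESeq2. The classes depended more on the processing. With the tighter of the alternative fold bounds for control level, 94 genes had returned from above and 315 from below, and 683 were higher and 249 lower only with glabridin. With upper-quartile factors these counts were 338 and 284 returned and 859 lower only with glabridin, with 107 now higher and 123 now lower after crossing. With library totals alone they were 555 and 114 returned, 495 higher and 1110 lower only with glabridin, and 59 and 212 crossed. Limma on TPM gave 2231 that stayed lower, 800 and 98 returned, 534 and 1308 only with glabridin, and 45 and 233 crossed. DESeq2 gave 106 crossed to lower. Without mitochondrially encoded genes 311 had returned from each side, and 125 and 111 had crossed. Over all leave-one-out fits, returned genes ran from 133 to 304 from above and from 231 to 827 from below, genes higher only with glabridin from 680 to 1044, and crossed genes from 97 to 445 higher and from 32 to 136 lower. Each control library, melanosome replicates 2 and 3 and each glabridin library moved at least 1 of these counts by over 1.5 times. Of 1512 list counts recomputed, 62 moved by that much. The cause was not tested.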
